A study of Mus musculus with 9 samples.

Results

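The CDK inhibitor genes and the retinoblastoma family genes were examined in RNA-Seq libraries of mouse osteoblasts and endothelial cells (ECs). They were taken by name as the 3 CIP/KIP inhibitors Cdkn1a, Cdkn1b, and Cdkn1c, the 4 INK4 inhibitors Cdkn2a, Cdkn2b, Cdkn2c, and Cdkn2d, and the 3 pocket proteins Rb1, Rbl1, and Rbl2, which makes 10 of the 50686 genes in the deposited table. The control group was the untreated MC3T3-E1 line, a mouse osteoblast line, and its time in culture is not given in the sources used here. The treated group was the same line after 10 μM SB216763, a compound that inhibits GSK3 kinases and so stabilizes β-catenin, for 14 days. The ECs were mouse pulmonary endothelial cells, sorted by FACS and given no treatment. Each group held n = 3 libraries, and all 6 osteoblast libraries came from a single line. The labels do not say whether the libraries came from separate cultures or animals, so the p-values measure only the spread between these samples, which may be technical.

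Progress from G1 into S phase depends on cyclin-dependent kinases that phosphorylate the pocket proteins and so release the E2F factors. INK4 proteins bind CDK4 and CDK6, whereas CIP/KIP proteins bind cyclin-CDK complexes more broadly. Among the pocket proteins, p130, the product of Rbl2, is known as the form that accumulates in resting cells, where it joins E2F and the MuvB core in the DREAM complex, whereas p107, the product of Rbl1, is known as the form of cycling cells and as the product of an E2F-regulated gene.

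The promoter windows of Rbl1 and Rbl2 are shown because these pocket protein genes moved in opposite directions after treatment. RefSeq windows on GRCm38.p6, from 250 bases before to 50 bases after the annotated start, were at hand for 8 of the members and had 11 windows in all. Capitals mark a match to the E2F motif TTTNNCGC or to the cell cycle element CHR, TTTGAA, on either strand. The Rbl1 window lay on the minus strand at chr2:157204485-157204784 and the Rbl2 window on the plus strand at chr8:91069807-91070106.
Rbl1: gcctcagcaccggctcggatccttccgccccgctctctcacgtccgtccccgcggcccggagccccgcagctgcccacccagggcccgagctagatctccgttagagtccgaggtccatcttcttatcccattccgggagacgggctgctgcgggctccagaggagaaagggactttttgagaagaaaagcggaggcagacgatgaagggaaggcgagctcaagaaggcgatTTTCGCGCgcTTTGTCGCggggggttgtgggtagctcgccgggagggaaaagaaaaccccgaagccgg
Rbl2: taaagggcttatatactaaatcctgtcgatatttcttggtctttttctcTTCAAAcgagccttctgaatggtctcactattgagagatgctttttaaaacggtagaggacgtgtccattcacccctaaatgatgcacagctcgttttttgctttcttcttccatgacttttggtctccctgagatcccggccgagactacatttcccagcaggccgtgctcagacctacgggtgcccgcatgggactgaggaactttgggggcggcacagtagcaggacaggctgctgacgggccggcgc
The Rbl1 window held 2 E2F matches, which began 18 and 8 bases before the start, and the Rbl2 window held none. Of all 32851 windows of this length, 5.17% held the E2F motif. The Rbl2 window held 1 CHR match on the other strand, and 17.9% of all windows held that motif. The motif CTTTGAN of the TCF factors, which shares letters with CHR, was matched in none of the 11 member windows and in 16% of all windows. The other windows with an E2F match were both of Cdkn2a. Such matches describe letters in a window and are not binding sites.

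The libraries held between 30990107 and 68946333 counts. The labels were checked against marker genes, and all values are CPM (a gene's count relative to the total count of its library), scaled by the TMM method. The 8 endothelial markers, Cdh5 and Pecam1 among them, summed to 3.69 to 4.62 CPM in control, 4.98 to 5.45 CPM in treated, and 6777 to 6979 CPM in EC libraries. The 7 osteoblast markers summed to 43920 to 59350 CPM, 8068 to 8339 CPM, and 45.1 to 64.5 CPM in the same order. The treated libraries thus lacked the levels of defining endothelial markers seen in ECs. Smooth muscle and pericyte markers, 7 genes led by Acta2 in controls and by Pdgfrb after treatment, summed to 3127 to 3278 CPM, 898 to 908.6 CPM, and 24.1 to 25.5 CPM. For 4 lymphatic markers the sums were 90.8 to 102 CPM, 91.8 to 102 CPM, and 248 to 264.5 CPM. In the osteoblasts nearly all of the latter came from Pdpn, which bone cells are known to express. Leukocyte markers, 8 genes with Cd3e at 0 throughout, stayed at 1.07 to 1.74 CPM, 2.01 to 2.18 CPM, and 47.4 to 49.8 CPM, the last mostly from Cd68. The 7 lung epithelial markers, with Epcam at 0 throughout, stayed at 0.601 to 0.729 CPM, 2.35 to 3.32 CPM, and 1.43 to 2.41 CPM. Mitochondrial genes took 0.304% to 0.484% of the control counts, 0.711% to 0.814% in ECs, and 0.831% to 2.26% after treatment, with the highest share in treated replicate 3. The part of these differences in the results was not tested. In bulk RNA, fewer cells with a transcript and less transcript per cell cannot be told apart.

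Treatment of the osteoblasts moved members of the pocket protein and CIP/KIP classes in opposite directions. Rbl2 and Cdkn1a rose, Rbl1, Cdkn1b, Cdkn2c, and Cdkn2d fell, and Rb1 did not pass the test. Hence 2 members were higher and 4 lower at an adjusted p (FDR) under 0.01, against backgrounds of 32.9% and 32% of the 15531 genes tested. With so few members, these counts are no result about the members as a set. None of the members (0) changed by 4-fold, against 9.65% of all genes, and Rbl1 and Cdkn1b were the members that passed 2-fold, a limit tried as an alternative. All 10 members entered the test, although Cdkn1c, Cdkn2a, and Cdkn2b did so only through the ECs. The comparison asks what SB216763 did to the expression of these genes in osteoblasts.

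**Figure D1:**
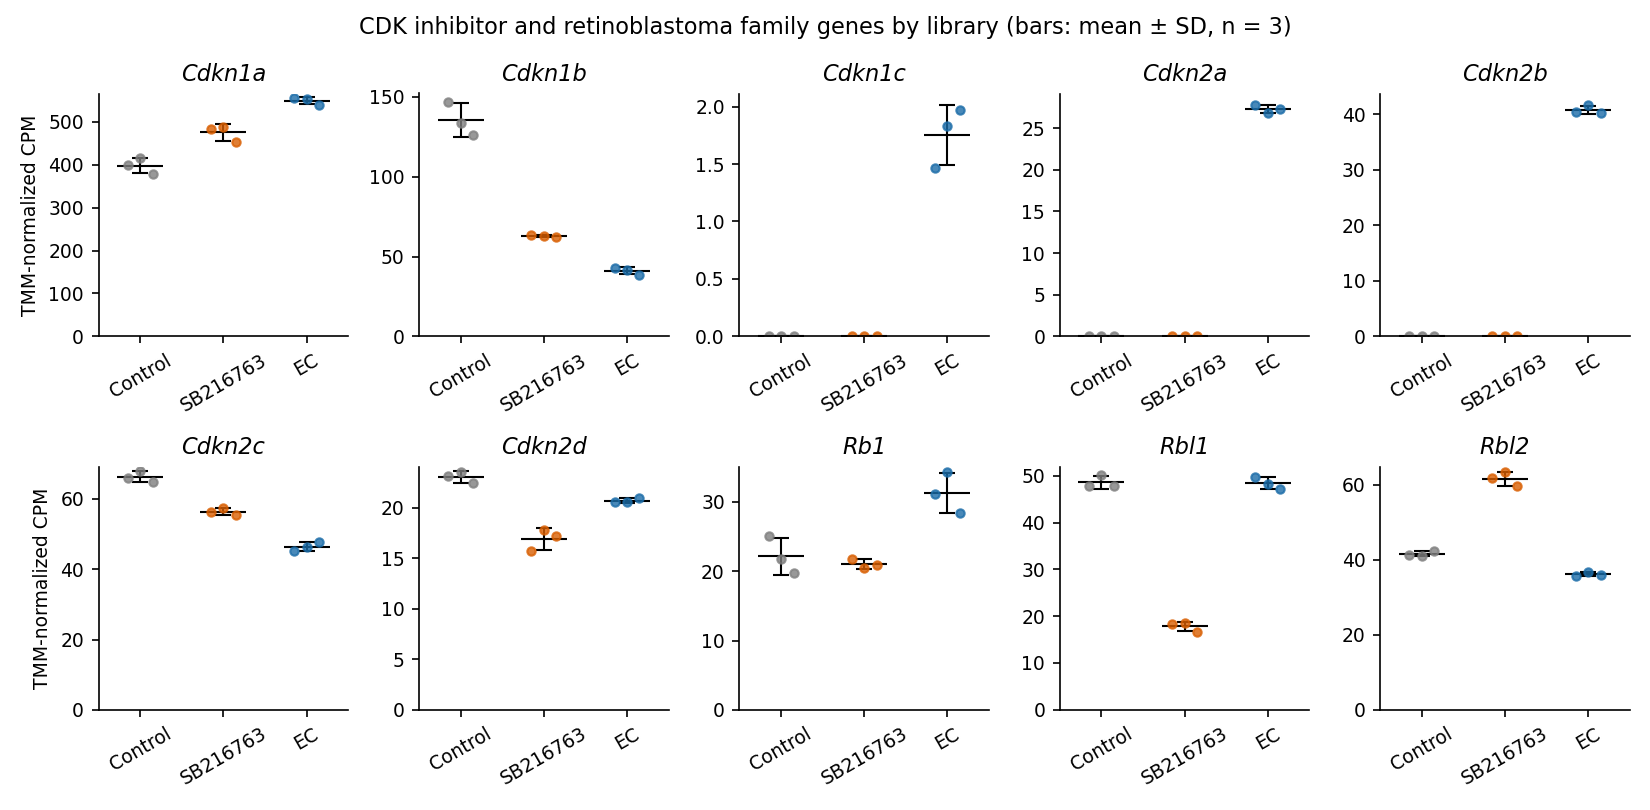
TMM-normalized CPM of each member (y axes from 0) in the control, SB216763-treated, and EC libraries, with each point a library and the bars giving mean ± SD of 3 libraries. Rbl1 fell to 17.8 CPM and Rbl2 rose to 61.5 CPM after treatment, and Cdkn1c, Cdkn2a, and Cdkn2b had levels above 1 CPM only in the ECs.

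Among the pocket proteins, Rbl1 (chr2:157145893-157204534, minus strand) was counted at 47.8, 50.2, and 47.7 CPM in the control libraries, 18.2, 18.5, and 16.7 CPM in those given SB216763, and 49.7, 48.2, and 47.2 CPM in ECs. The treated libraries lay far below the others, and the control and EC libraries overlapped. The log2 fold change of Rbl1 after treatment was -1.45 (standard error 0.05, adjusted p = 3.86e-13 by edgeR), from 48.6 ± 1.40 to 17.8 ± 0.977 CPM (SD, n = 3). Between ECs and controls it was -0.01 (standard error 0.05, adjusted p = 0.894).

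Rbl2 (chr8:91070057-91123844, plus strand) went the other way. Its libraries were at 41.3, 41.1, and 42.3 CPM in the controls, 61.7, 63.3, and 59.7 CPM after treatment, and 35.7, 36.9, and 36.0 CPM in ECs. The 3 groups did not overlap, with the treated libraries highest and the ECs lowest. The log2 fold change after treatment was 0.57 (standard error 0.04, adjusted p = 4.18e-09 by edgeR). In ECs against controls it was -0.20 (adjusted p = 4.23e-04 by edgeR), a call that was lost with scaling by library size only (-0.07, adjusted p = 0.0931). Aktip, on the opposite strand, covers 693 (9.17%) of the 7558 exon bases of Rbl2 and rose as well, from between 36.1 and 38.9 to between 49.0 and 56.4 CPM. Its log2 fold change was 0.50 (adjusted p = 3.12e-07 by edgeR). A strand setting of the counting is not given in the sources used here, and the part of Aktip in the Rbl2 counts was not tested.

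Rb1 (chr14:73183673-73325822, minus strand), the founding tumor suppressor of the family, was at 25.0, 21.7, and 19.7 CPM in the controls, 21.8, 20.5, and 20.9 CPM after treatment, and 31.1, 34.3, and 28.4 CPM in ECs. The treated libraries lay within the range of the controls, and the EC libraries lay above both groups. Its log2 fold change was -0.09 after treatment (standard error 0.08, adjusted p = 0.365 by edgeR) and 0.48 in ECs against controls (standard error 0.08, adjusted p = 4.11e-05). Lpar6, a lysophospholipid receptor gene on the opposite strand inside Rb1, shares 408 (6.78%) of its exon bases and stood at 61.0 to 69.1 CPM in ECs against 2.67 to 3.19 CPM in controls. Rcbtb2 shares another 488 bases, and it stood at 64.7 to 67.8 CPM in ECs against 41.4 to 45.9 CPM in controls. The part of either gene in the Rb1 counts was not tested.

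Per kilobase of exon, the pocket proteins changed rank, with Rbl1 going from the highest to the lowest of the 3. Rbl1 made up 46.9 ± 1.42% of their summed level in the controls and 20.3 ± 0.578% after treatment. Rbl2 made up 31.8 ± 1.23% and 55.7 ± 0.645%, and Rb1 21.3 ± 2.16% and 24.0 ± 0.929% (SD, n = 3). The ratio of Rbl1 to Rbl2 was between 1.42 and 1.54 in the control libraries, 0.353 and 0.373 in the treated libraries, and 1.65 and 1.76 in the ECs. The 3 genes together stood at 17.3 ± 0.403 CPM per kb in control, 14.6 ± 0.395 in treated, and 18.1 ± 0.644 in EC libraries, so that the treated sum was 0.845 ± 0.0302 times the control sum. No test was run on these sums.

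**Figure D2:**
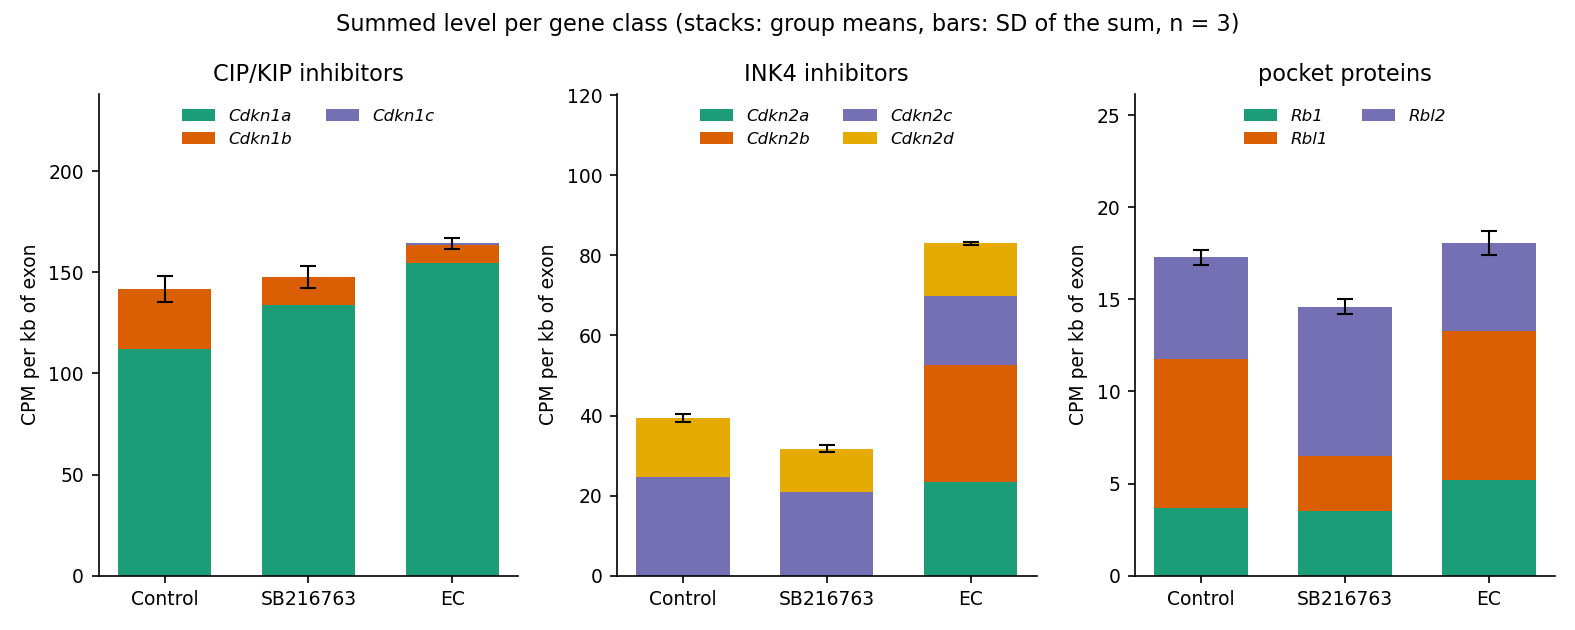
Summed level of each class in CPM per kb of exon (y axes from 0), with stacks for the group means of its genes and bars for the SD of the sum over 3 libraries. The share of Rbl2 among the pocket proteins went from 31.8% to 55.7% after treatment, and that of Cdkn1a among the CIP/KIP genes from 79.0% to 90.7%.

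The CIP/KIP gene Cdkn1b (chr6:134920401-134925513, plus strand), which encodes p27, was at 147, 134, and 126 CPM in the controls, 63.2, 62.7, and 62.3 CPM after treatment, and 43.0, 41.7, and 38.7 CPM in ECs. No libraries overlapped between the groups, with the treated libraries between the controls and the ECs. Its log2 fold change was -1.11 after treatment (standard error 0.06, adjusted p = 4.00e-11 by edgeR), -1.72 in ECs against controls (adjusted p = 9.54e-14), and 0.61 in treated osteoblasts against ECs (adjusted p = 6.54e-08).

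Cdkn1a (chr17:29090976-29100727, plus strand), which encodes p21, the inhibitor best known as a p53 target, changed in the opposite direction. It was counted at 399, 415, and 379 CPM in the controls, 484, 489, and 453 CPM after treatment, and 555, 552, and 539.8 CPM in ECs. These groups were again apart, with the ECs highest. The log2 fold change was 0.26 after treatment (standard error 0.05, adjusted p = 2.40e-04 by edgeR) and 0.46 in ECs against controls (adjusted p = 3.24e-07). It was -0.21 in treated osteoblasts against ECs (adjusted p = 0.00119 by edgeR), and this call was lost with scaling by library size only (-0.13, adjusted p = 0.0164) and without the filter on low counts (-0.17, adjusted p = 0.022).

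Per kilobase, Cdkn1a exceeded Cdkn1b by 3.49 to 3.98 times in the control libraries, 9.32 to 10.00 times after treatment, and 16.6 to 17.9 times in ECs. With the longest transcript as length these ratios were 5.95 to 6.81, 15.9 to 17.1, and 28.3 to 30.5, in the same order of groups. The CIP/KIP sum after treatment was 1.04 ± 0.0608 times that of the controls. Cdkn1c, the imprinted inhibitor gene that encodes p57, had 0 counts in all 6 osteoblast libraries and 1.47, 1.83, and 1.97 CPM in ECs, where 64, 60, and 85 reads were counted. Against a floor of 3 counts per library, the EC level was at least 16.8-fold higher than in controls and at least 20.4-fold higher than in treated osteoblasts. Of its neighbors, Kcnq1 (31296 bases away) was at up to 0.0287 CPM in the osteoblasts and 25.1 to 27.2 CPM in ECs. Slc22a18, nearer on the other side (12685 bases), was at 0.0728 to 0.104 CPM in controls, near the floor of 3 counts. It rose to 0.517 to 0.834 CPM after treatment (adjusted p = 8.92e-07 by edgeR) and was at 2.62 to 3.20 CPM in ECs. Unlike Cdkn1c, it was thus counted in the treated osteoblasts.

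The INK4 genes fell into a pair present in all groups and a pair counted in ECs. Cdkn2c (chr4:109660876-109667189, minus strand), which encodes p18, was at 66.0, 68.0, and 64.8 CPM in the controls, 56.2, 57.5, and 55.5 CPM after treatment, and 45.2, 46.3, and 47.8 CPM in ECs. The groups did not overlap and descended in that order. Its log2 fold change after treatment was -0.23 (standard error 0.04, adjusted p = 1.12e-04 by edgeR), but with scaling by library size only it was -0.03 (adjusted p = 0.502). In ECs against controls it was -0.51 (adjusted p = 1.14e-08 by edgeR).

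Cdkn2d (chr9:21288410-21291407, minus strand), which encodes p19Ink4d, was at 23.1, 23.6, and 22.4 CPM in the controls, 15.7, 17.8, and 17.2 CPM after treatment, and 20.5, 20.5, and 20.9 CPM in ECs. The treated libraries were lowest, and the ECs lay between without overlap. The log2 fold change was -0.45 after treatment (standard error 0.06, adjusted p = 2.72e-06 by edgeR). In ECs against controls it was -0.16 and missed the limit (adjusted p = 0.0151), but it passed without treated replicate 1, 2, or 3 (adjusted p = 0.00828, 0.00934, and 0.00992) and in a fit of those groups alone (adjusted p = 0.0044).

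Cdkn2a and its neighbor Cdkn2b were close to absent from the osteoblast line and well counted in ECs. Cdkn2a (chr4:89274471-89294653, minus strand) encodes p16 and, in another frame, the p53 activator p19Arf, which counts per gene do not separate. It had 0, 1, and 0 reads in the controls, 0 in every treated library, and 27.8, 26.8, and 27.4 CPM in ECs. Cdkn2b (chr4:89306299-89311039, minus strand), 11645 bases away, encodes p15 and had 1, 0, and 0 reads in the controls, 0 in every treated library, and 40.5, 41.7, and 40.3 CPM in ECs. With 1 read in the controls, the ratio of ECs to controls was 4026.5 for Cdkn2a (95% counting interval 722 to 159086) and 5995 for Cdkn2b (1075 to 236832). Against the floor of 3 counts per treated library, the ECs were at least 317.5-fold higher for Cdkn2a and at least 474-fold higher for Cdkn2b. These intervals and floors cover counting error only.

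The next gene on the side of Cdkn2a away from Cdkn2b, Mtap (chr4:89137122-89181081), followed the same pattern. Mtap encodes a widely expressed enzyme of methionine salvage, and it was at most 0.0546 CPM in the controls, at most 0.0860 CPM after treatment, and 112 to 119 CPM in ECs. Within 2 Mb on each side of Cdkn2a lay 42 protein-coding genes. Of these, 7 had at least 1 CPM in every EC library and 4 in every osteoblast library, and the 3 that the osteoblasts lacked, all under 0.2 CPM, were the neighbors Mtap, Cdkn2a, and Cdkn2b. Ifne, the next gene beyond Mtap, missed the limit of 1 CPM in every EC library. It was at 0.792 to 1.11 CPM in ECs and at most 0.0287 CPM in the osteoblasts. Klhl9, the nearest gene counted in the osteoblasts, was at 103 to 108 CPM in the controls and 121 to 132 CPM after treatment, with its middle 574.3 kb from the start of Cdkn2a. Beyond Cdkn2b, on the side away from Klhl9, no gene of this window reached 1 CPM in any group, Dmrta1 having 0 counts throughout. This stretch was looked at after the values of its genes had been seen. Read counts cannot tell apart a gene that is silent and one that is missing from a line.

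**Figure D3:**
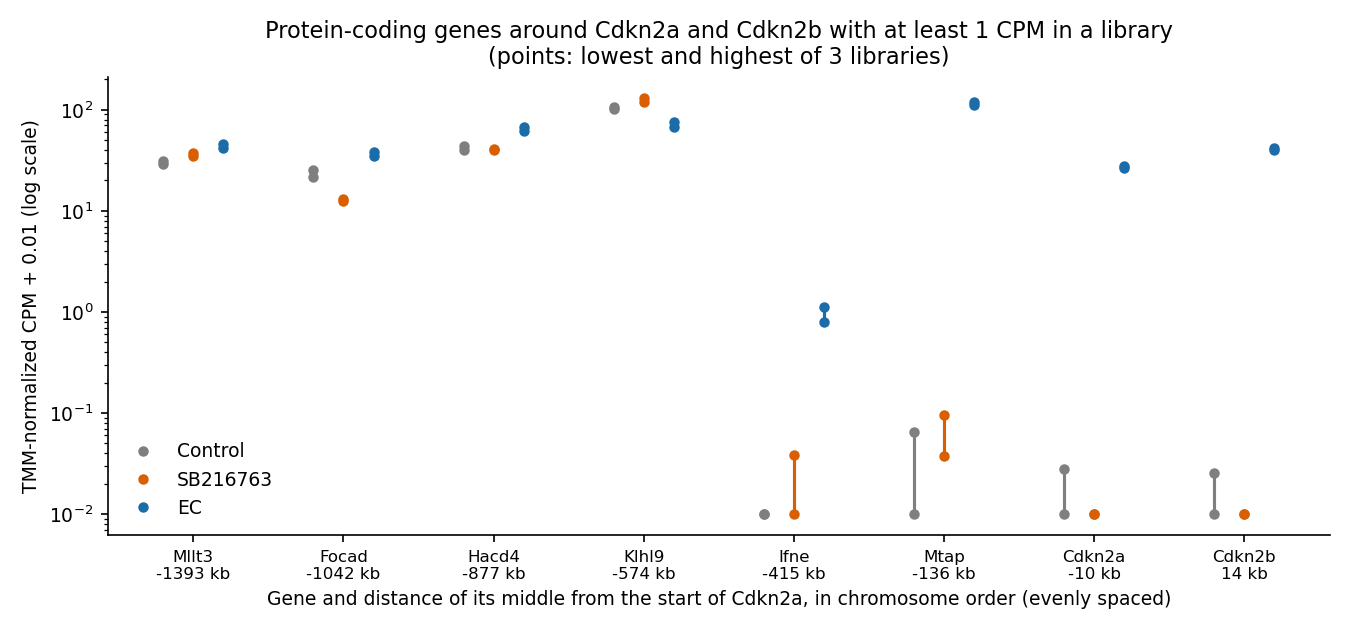
Lowest and highest TMM-normalized CPM of 3 libraries, plus 0.01 and on a log axis, for the protein-coding genes around Cdkn2a with at least 1 CPM in a library, in chromosome order and evenly spaced. Mtap, Cdkn2a, and Cdkn2b lay under 0.2 CPM in every osteoblast library and above 26 CPM in every EC library, whereas Klhl9 was above 68 CPM in all groups.

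Of the 4 INK4 genes, Cdkn2c and Cdkn2d therefore carried nearly all of the osteoblast level. The class summed to 39.3 ± 0.962 CPM per kb in control, 31.7 ± 0.907 in treated, and 83.1 ± 0.368 in EC libraries, and in the last of these Cdkn2a made up 28.0% and Cdkn2b 35.3%. Across the whole family, the order per kb in the controls was Cdkn1a (112), Cdkn1b (29.8), Cdkn2c (24.7), Cdkn2d (14.6), Rbl1 (8.11), Rbl2 (5.50), and Rb1 (3.68 CPM per kb), followed by the 3 genes at or near 0, and no neighbors among the first 7 overlapped. After treatment Cdkn2c (21.0) passed Cdkn1b (13.8), and Rbl1 (2.97) dropped below Rb1 (3.50 CPM per kb), also without overlap. In ECs, Cdkn2b (29.4) and Cdkn2a (23.3 CPM per kb) came next after Cdkn1a, and Rb1 and Rbl2 overlapped. With the longest transcript as length, Cdkn2a (30.5) and Cdkn2b (29.4 CPM per kb) changed places and their EC libraries overlapped, so their order rests on the length used. Likewise, Rbl2 (12.5) then stood above Cdkn2d (11.9 CPM per kb) after treatment, with overlap.

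**Figure D4:**
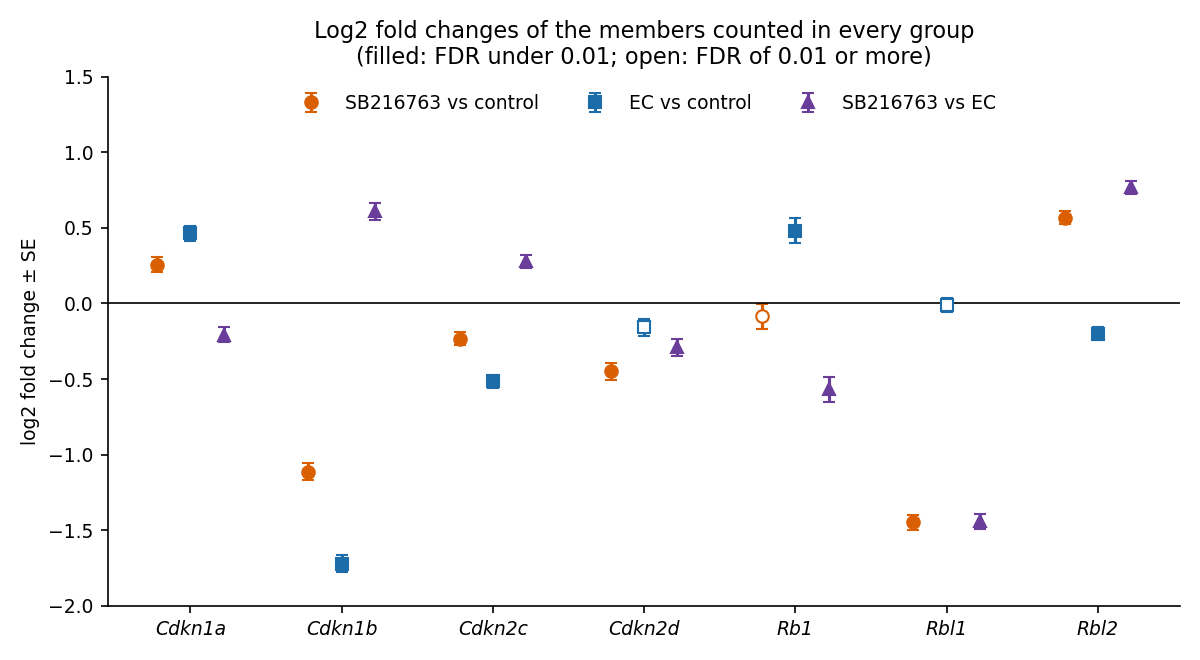
Log2 fold change ± SE (y axis) of the 7 members counted in every group, with filled symbols for an adjusted p under 0.01 in edgeR and open symbols for the rest. Cdkn1b lay at -1.11 after treatment and -1.72 in ECs against controls, and Rbl1 lay at -1.45 and -0.01.

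The other comparisons ask how the osteoblasts differed from ECs with and without treatment. Against controls, 5 members were higher in ECs and 3 lower, where 39% and 37.9% of all genes were. These counts are near those shares and so no result about the members as a set. The 3 that passed 4-fold were Cdkn1c, Cdkn2a, and Cdkn2b, where 23.4% of all genes passed. They entered the test only through the ECs, so counting them as higher in ECs follows from the filter and is no result. In treated osteoblasts against ECs, 3 members were higher (Cdkn1b, Cdkn2c, and Rbl2), where 38.3% of all genes were. The other 7 were lower, where 40.3% were, and they include the 3 members that entered only through the ECs. Those same 3 passed 4-fold, where 25.3% of all genes did. Rbl1, whose control and EC libraries overlapped, was lower after treatment than in ECs, at -1.44 on the log2 scale (standard error 0.05, adjusted p = 1.71e-13 by edgeR). Rbl2 was higher than in ECs by 0.77 (standard error 0.04, adjusted p = 5.87e-11 by edgeR).

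The partners and targets of the pocket proteins fell broadly after treatment, where 32% of all genes fell and 32.9% rose. Of 10 E2F and DP factors, 8 fell, 0 rose, and 2 did not pass (median log2 fold change -0.76, against 0.01 over all genes). The repressor E2f7 went from 29.9 ± 1.88 to 2.18 ± 0.186 CPM, E2f8 from 19.9 ± 0.289 to 1.68 ± 0.172 CPM, and the activator E2f2 from 3.38 ± 0.0689 to 0.471 ± 0.0967 CPM (SD, n = 3). E2f4, the usual partner of p130, was at 57.6 ± 1.48 and 55.0 ± 2.07 CPM and did not pass (adjusted p = 0.203 by edgeR). Of 8 genes of the DREAM and MuvB list, 4 fell, 1 rose, and 3 did not pass. The mitotic activators Mybl2 and Foxm1 had log2 fold changes of -4.23 and -3.11, Mybl1 one of -1.29, and the MuvB subunit Lin9 one of -1.04. Another MuvB subunit, Lin37, had one of 0.72, whereas Lin52, Lin54, and Rbbp4 did not pass.

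All 16 E2F target genes fell, 12 of them past 4-fold (median log2 fold change -2.52), with Rrm2, a subunit of ribonucleotide reductase, at 134 ± 7.07 and 8.38 ± 0.308 CPM. The replication licensing gene Mcm5 had a log2 fold change of -3.87, Cdc6 one of -3.75, and the thymidine kinase gene Tk1 one of -3.57. Each of the 14 mitotic genes known as DREAM targets fell past 4-fold (median -3.73). Among them were the kinase gene Plk1 (-4.36), Cdc20 (-4.03), the kinesin gene Kif11 (-3.96), and Ube2c (-3.78 on the log2 scale). In ECs against controls, 11 of the 16 E2F targets were higher and 3 lower, and of the mitotic genes 6 were higher and 5 lower. Of all genes, 39% were higher there and 37.9% lower. The mitotic counts are near those shares and so no result about that list. The medians of the E2F and mitotic targets were 0.33 and -0.02 there. In that comparison 0 genes of either list passed 4-fold, where 23.4% of all genes did.

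**Figure D5:**
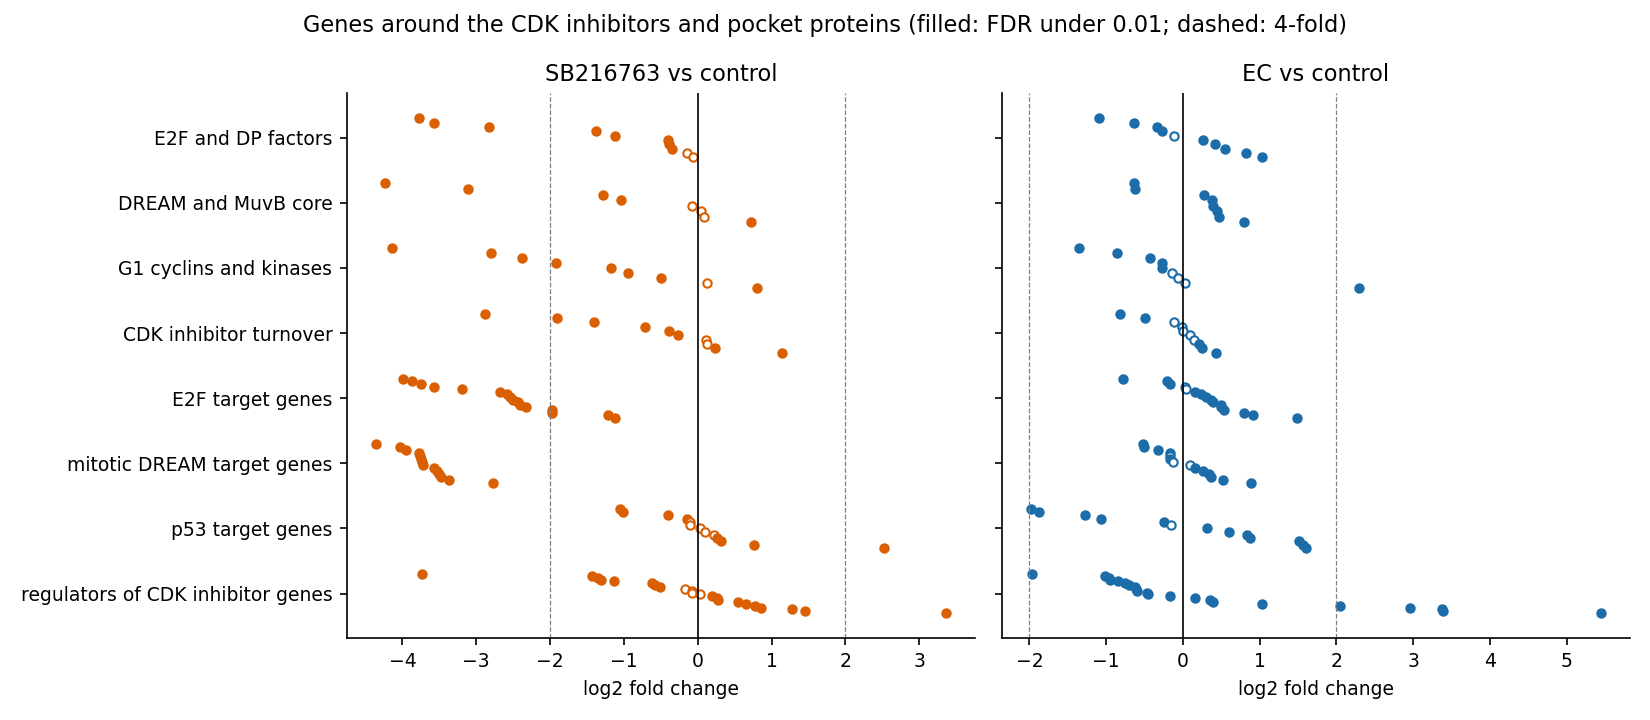
Log2 fold change (x axes) of each gene with counts in all groups, by list (y axis), for treated osteoblasts against controls and for ECs against controls, with filled points for an adjusted p under 0.01 and dashed lines at 4-fold. The E2F and mitotic targets lay at medians of -2.52 and -3.73 after treatment and of 0.33 and -0.02 in ECs.

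The kinases and cyclins that the inhibitors act on also moved. Of 9 G1 cyclins and kinases, 7 fell, 1 rose, and 1 did not pass after treatment, where 32% of all genes fell and 32.9% rose. Ccna2 went from 131 ± 6.14 to 7.47 ± 0.470 CPM, Ccne2 from 43.7 ± 2.48 to 6.31 ± 0.141 CPM, and Cdk6, a target of the INK4 proteins, from 283 ± 40.7 to 54.2 ± 0.779 CPM. Ccne1 had a log2 fold change of -1.92, and Ccnd3 rose by 0.80, while Ccnd2 was at 779 and 851 CPM and did not pass. In ECs 1 was higher than in controls and 5 were lower, where 39% and 37.9% of all genes were. The higher gene was Ccnd1, the cyclin D1 gene, at 439 ± 6.61 CPM in controls and 2149.9 ± 21.0 CPM in ECs.

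Genes for the turnover of CIP/KIP proteins were counted next to their substrates. Of 10 such genes tested, 6 fell, 2 rose, and 2 did not pass after treatment, where 32% of all genes fell and 32.9% rose. Skp2 and Cks1b, which recruit p27 to its ubiquitin ligase, went from 33.6 ± 0.806 to 8.95 ± 0.475 CPM and from 55.3 ± 3.09 to 20.8 ± 1.19 CPM, while the scaffold gene of that ligase, Cul1, rose from 187 ± 4.39 to 411 ± 10.1 CPM. Dtl, the adaptor that targets p21 in S phase, had a log2 fold change of -2.88. In ECs 3 were higher and 2 lower than in controls, where 39% and 37.9% of all genes were. Skp2 was at -0.50 there, Ubac1 at -0.82, Cks1b at 0.24, and Rnf123 at 0.44 on the log2 scale. These are RNA levels, and the proteins were not measured here.

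Of 13 other known p53 targets, 4 rose, 4 fell, and 5 did not pass after treatment (median log2 fold change 0.03), shares near the 32.9% and 32% of all genes and so no result about these targets. With scaling by library size only, 7 rose. Sesn1 rose from 40.5 ± 1.5 to 233 ± 5.87 CPM and Sesn2 by 0.76, whereas Plk2 and Bbc3 fell by 1.05 and 1.02 on the log2 scale. The p53 gene Trp53 itself went from 217 ± 7.17 to 80.2 ± 2.0 CPM. In ECs, 7 of the 13 were higher and 5 lower than in controls, where 39% and 37.9% of all genes were. Plk2 was at 1.61 there, the p53 ligase gene Mdm2 at 1.57, Sesn1 at -1.98, and Gdf15 at -1.87 on the log2 scale.

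Of 23 known regulators of CDK inhibitor genes, 11 rose, 8 fell, and 4 did not pass after treatment, where 32.9% and 32% of all genes rose and fell. Myc, which represses inhibitor genes with Zbtb17, went from 224 ± 7.69 to 16.9 ± 0.760 CPM. Hes1, a Notch target known to repress Cdkn1b, went from 6.66 ± 0.507 to 68.9 ± 3.49 CPM, and Foxo3, known as an activator of Cdkn1b, from 116 ± 9.29 to 319 ± 3.05 CPM. Thus a repressor and an activator of the same gene both rose. Ezh2 and Bmi1, of the Polycomb complexes that silence Cdkn2a, had log2 fold changes of -1.35 and 0.27. In ECs 9 regulators were higher and 14 lower than in controls, where 39% and 37.9% of all genes were. Id1 was at 4.86 ± 0.375 CPM in controls and 211 ± 5.56 CPM in ECs, Foxo1 at 14.3 ± 2.19 and 151 ± 3.69 CPM, and Id2 at 15.1 ± 0.133 and 156 ± 2.72 CPM. Tbx3, a T-box repressor of Cdkn2a, was at 6.12 ± 0.625 CPM in controls and 7.73 ± 0.492 CPM after treatment and had 0 counts in ECs. Tbx2, another T-box gene of this list, was by contrast counted in ECs, at a mean of 13.1 CPM. Its control mean was 10.0 CPM, and its log2 fold change in ECs against controls was 0.39 (adjusted p = 3.18e-05 by edgeR). The treated libraries held the most Tbx2, with a mean of 24.2 CPM. Relative to controls this was a log2 fold change of 1.275 (adjusted p = 1.82e-11 by edgeR).

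Of 11 genes linked to senescence, 3 rose, 6 fell, and 2 did not pass after treatment, where 32.9% of all genes rose and 32% fell. The list mixes secreted factors with genes that fall in senescent cells, so its counts cannot be read in a single direction. The collagenase gene Mmp13 rose from 10.7 ± 0.506 to 601 ± 18.6 CPM, and Cxcl15 from 0.0105 ± 0.0182 to 1.38 ± 0.0931 CPM. The lamin gene Lmnb1, which falls in senescent cells, went from 137 ± 3.35 to 13.3 ± 0.388 CPM, and the chemokine gene Ccl2 from 6.68 ± 0.726 to 0.383 ± 0.0521 CPM. In ECs 5 were higher and 4 lower than in controls, where 39% and 37.9% of all genes were. Mmp13 was at 1.80 ± 0.476 CPM in ECs.

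Patterns over the 9 libraries were compared by the Euclidean distance of centered log2 CPM, among the other 15530 genes tested. The genes nearest to Rbl1 were Foxd2os (0.182), Tpm4 (0.183), and Ankrd29 (0.190), and each of them was lower after treatment and at a like level in controls and ECs. Those nearest to Cdkn2a were Mageh1 (0.426), Tnfrsf26 (0.613), and Gimap1 (0.623), all under 0.1 CPM on average in the osteoblasts. Cdkn2a was taken because its log2 fold change after treatment was nominally the largest of the members. That value, -1.71, rests on 1 control read and did not pass (adjusted p = 0.338 by edgeR). Chosen after their values had been seen, the nearest to Rbl2 were Alkbh5 (0.0665), Pon3 (0.0940), and B4galt5 (0.103), and to Cdkn1b Rab30 (0.211), Rpgrip1l (0.213), and Fads1 (0.230).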

How the data were processed

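RNA-Seq was performed by the authors on 3 control, 3 SB216763-treated, and 3 EC libraries. Per the submitters' processing notes, STAR 2.5.3a and GRCm38 were used, and the authors deposited counts per gene, whole numbers without normalization. The annotation and strand setting are not given in the sources used here, and 0 columns lacked a sample. Every label carries the same treatment text, so groups were taken from titles and treatment entries. Identifiers were matched to symbols (50376 of 50686), and coordinates and exon lengths come from GENCODE M21 on GRCm38.

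Counts were tested in R 4.3.3 with edgeR 4.0.16 (filterByExpr, TMM, quasi-likelihood test over all 9 libraries, Benjamini-Hochberg adjustment), checked on simulated data. A gene was called at an adjusted p under 0.01, and past 4-fold when its log2 fold change also reached 2 in either direction, the cutoffs in the study's methods. The prior count was 0.125 for fold changes and 2 for the distances, and each standard error came from the fold change and its F statistic. The 9 libraries held 30990107 to 68946333 counts, so that 3 counts, the floor, equaled at most 0.104 CPM. No replicates differed by as little as sampling noise (chi-square per gene 2.85 to 104).

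The alternatives were library size only, upper-quartile scaling, limma-voom (3.58.1), DESeq2 (1.42.0), no filter or one asking for 10 counts throughout 1 group, fits of the compared groups, a replicate block, an FDR of 0.05, a log2 fold change of 1, the longest transcript as length, and leaving out each library. The members and lists were chosen with earlier results of these data known. Besides the members and the markers, up to 4 genes per list and comparison were named, those with the largest absolute log2 fold change among called genes with at least 1 CPM on average in a compared group, as well as overlapping genes and the 3 nearest patterns of the members with the largest change and the smallest adjusted p. List genes outside this rule (E2f4, Lin37, Lin52, Lin54, Rbbp4, Ccnd2, Ccnd3, Zbtb17, Ezh2, Bmi1, Tbx2, and some of those given for one comparison) and the neighbors on chromosomes 4 and 7 were named for their known role or place after their values were seen. Another gene that the rule names is not reported here.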

Additional observations from a re-analysis of the deposited data

How the results depend on the processing

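Over the members' fold changes, counts, and list counts, scaling by library size only moved most. It shifted the median log2 fold change of all genes by 0.204 after treatment and by 0.126 in ECs against controls. Under it the counts of higher genes after treatment were 1 for E2F and DP factors, 3 for DREAM and MuvB, 2 for G1 cyclins and kinases, 4 for CDK inhibitor turnover, and 7 for p53 targets. In ECs against controls they were 2 higher and 3 lower for G1 cyclins and kinases, 5 higher for turnover, 1 lower for E2F targets, and 3 lower for mitotic targets. The summed levels relative to controls were then 1.199 (CIP/KIP), 0.9293 (INK4), and 0.9737 (pocket proteins) after treatment and 1.266, 2.305, and 1.14 in ECs. With the longest transcript as length they were 0.8919 for pocket proteins after treatment, and 1.239 for CIP/KIP and 2.166 for INK4 in ECs. The cause of these shifts was not tested. With the fold limit lowered to 1 on the log2 scale, 2 members passed after treatment. Of the members' values, 267 of those with 1 library left out kept their side of the limit and 3 newly passed, all of Cdkn2d in ECs against controls. Under the other alternatives 232 kept it, 1 newly passed, 4 were lost, and 0 reversed. Same-numbered libraries deviated together with correlations of -0.0392 to 0.123, and 3 of 9 best matches carried the same number. Between control and treated libraries, the same-numbered correlations were 0.00286, 0.123, and 0.081. With 3 libraries per group, these values show no clear pairing but cannot exclude one. A replicate block left the counts of members at 2 higher and 4 lower after treatment. Fewer than 3 counts per library limit what can be said of Cdkn1c, Cdkn2a, and Cdkn2b in osteoblasts.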
